A study of Mus musculus with 3 samples.

Results

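Of the 1915 mature microRNAs (miRNAs) listed in each file, 4 are described here by name: miR-615-3p, miR-615-5p, miR-196a-5p and miR-196b-5p, all cut from hairpins that lie inside the Hox gene clusters. All 4 names were present in the files. They were read in 3 small-RNA libraries, 1 per group. B16 is a melanoma line from the mouse, given as strain C57BL/6J, and was read both as cells and as the exosomes it sheds. JB6 is a skin line, given as BALB/c and as not diseased, and was read as exosomes alone. Exosomes are small vesicles released into the culture medium, and both exosome preparations were collected by ultracentrifugation. No agent or genetic change is named for any group, and a library of JB6 cells themselves is not analysed here.

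Hox genes encode transcription factors that give cells their position along the head-to-tail axis of the embryo. In each cluster they are switched on in nested order, with genes at the 3′ end active further forward and genes at the 5′ end confined to the trunk, tail and distal limb, and many adult skin and connective-tissue cells keep a Hox pattern that reflects their site of origin. The miRNAs of these clusters are transcribed from among the Hox genes and are usually switched on with their neighbours, so they can serve as marks of positional identity. miR-196 lies near the posterior genes and represses several Hox mRNAs, miR-10 lies near the anterior group 4 genes, and miR-615 lies in an intron of Hoxc5.

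The mature sequences of the 4 miRNAs and of the paired miR-10 miRNAs are shown because they decide which reads can be told apart. They are from RefSeq (GRCm38.p6), written 5′ to 3′, with the seed, bases 2 to 8, in capitals. In the miR-196 and miR-10 pairs the single base that differs is also in capitals.
miR-615-3p: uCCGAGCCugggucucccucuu
miR-615-5p: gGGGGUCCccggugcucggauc
miR-196a-5p: uAGGUAGUuucAuguuguuggg
miR-196b-5p: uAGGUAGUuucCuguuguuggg
miR-10a-5p: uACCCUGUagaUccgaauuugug
miR-10b-5p: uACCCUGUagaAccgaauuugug
miR-196a-5p and miR-196b-5p share their seed and differ by 1 substitution, A12C, counted from the 5′ end with the miR-196a-5p base first. miR-10a-5p and miR-10b-5p likewise share a seed and differ by U12A. No other of the 1623 miRNAs matched to the sequence table has the miR-196 seed at bases 2 to 8, and none has that of either miR-615 arm. The miR-615 arms are rich in G and C, at 63.6% for miR-615-3p and 77.3% for miR-615-5p, against 40.9% for miR-196a-5p and 45.5% for miR-196b-5p.

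The hairpins show which genomic copies the reads can come from. In GRCm38 (GENCODE M21) Mir615 lies on chromosome 15, 103014910 to 103015001, in an intron of Hoxc5, 3.03 kb from Hoxc6 on its 5′ side and 3.93 kb from Hoxc4 on its 3′ side. miR-196a-5p has a pair of source loci. Mir196a-2, on chromosome 15 from 102973350 to 102973434, lies between Hoxc10 (1.46 kb) and Hoxc9 (3.01 kb) and also within an intron of a long non-coding transcript annotated to Hoxc5. Mir196a-1, on chromosome 11 from 96265164 to 96265265, lies between Hoxb13 and Hoxb9 (6.19 kb) outside annotated transcripts. Mir196b lies on chromosome 6, 52230081 to 52230165, inside Hoxa9, where it is exonic in some non-coding transcripts and intronic in others, 1.03 kb from Hoxa10. In the miR-196 hairpins below, the mature arms are in capitals.
Mir196a-1: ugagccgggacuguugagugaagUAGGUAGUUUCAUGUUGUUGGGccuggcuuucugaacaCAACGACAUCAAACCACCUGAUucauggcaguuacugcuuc
Mir196a-2: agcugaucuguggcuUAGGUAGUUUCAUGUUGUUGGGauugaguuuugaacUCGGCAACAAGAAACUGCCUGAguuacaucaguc
Mir196b: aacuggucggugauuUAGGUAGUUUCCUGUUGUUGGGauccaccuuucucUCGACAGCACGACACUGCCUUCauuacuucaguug
The 5p arms of Mir196a-1 and Mir196a-2 are the same sequence, so miR-196a-5p reads cannot be assigned to Hoxb or Hoxc. Only the 3p arms differ between these copies, and miR-196a-1-3p and miR-196a-2-3p were listed at 0 in all 3 libraries. The map of the clusters places each hairpin among its Hox genes.

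**Figure D1:**
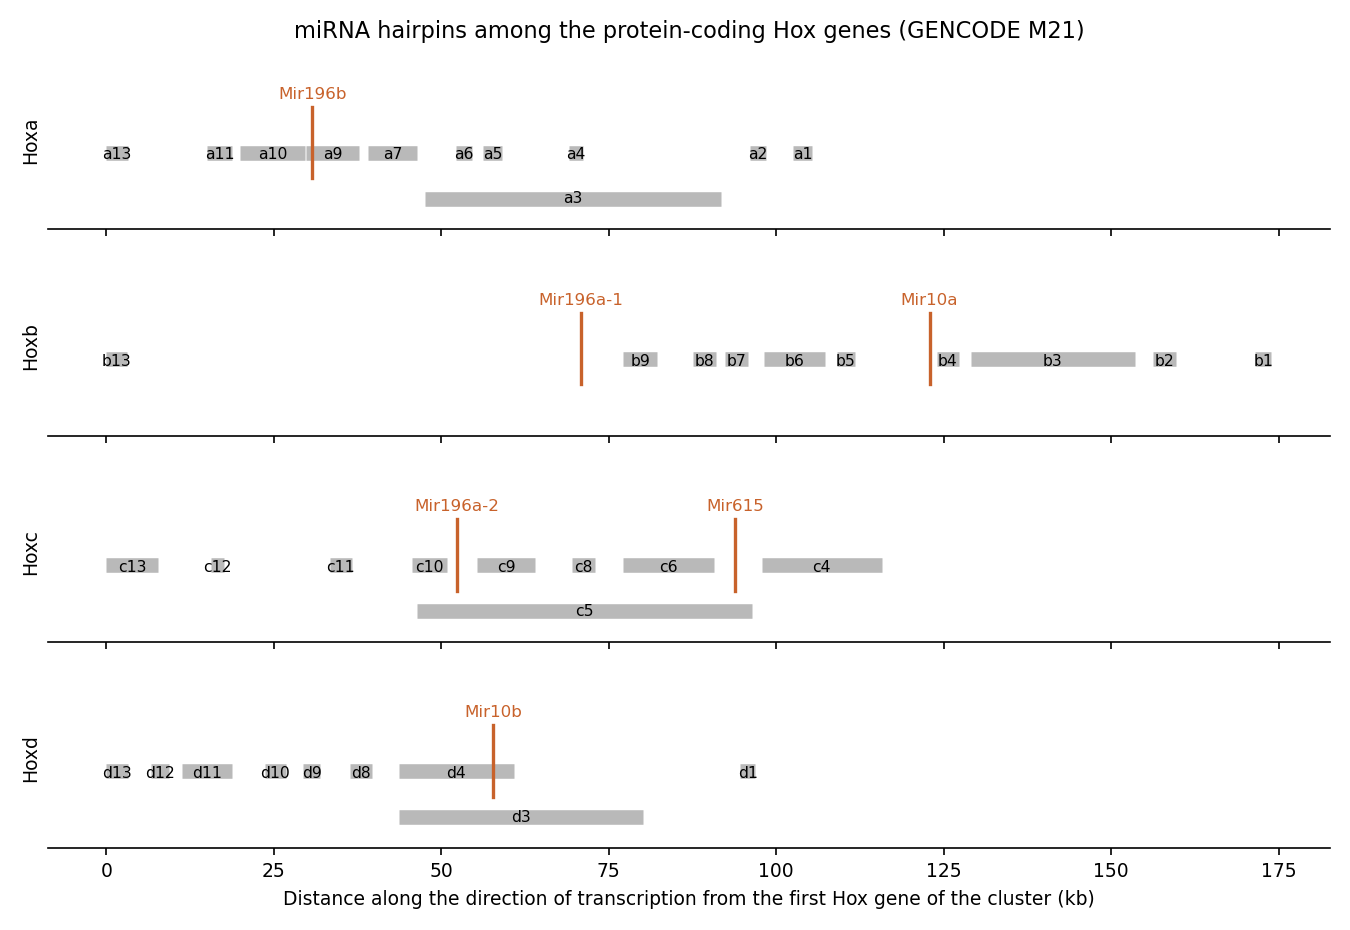
Position of the miRNA hairpins (orange lines) among the protein-coding Hox genes (grey boxes) of the Hoxa, Hoxb, Hoxc and Hoxd clusters, along the direction of transcription in kb from the first Hox gene of each cluster. Mir615 and Mir196a-2 share the Hoxc cluster, Mir196a-1 and Mir10a the Hoxb cluster, while Mir196b is in Hoxa and Mir10b in Hoxd. Gm44463, a further annotated miRNA gene in Hoxd, is not drawn.

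The miR-196 pair is best known for a site in the 3′ untranslated region of Hoxb8, an mRNA that miR-196a directs to be cleaved. That site, on chromosome 11 from 96284888 to 96284909 (GRCm38), is shown because it separates the pair at the base in which they differ. The capitals mark the base facing miRNA base 12 and the base in a G:U pair with miRNA base 5.
Hoxb8 site: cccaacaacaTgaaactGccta
All 22 bases of miR-196a-5p pair with it, 21 as Watson-Crick pairs and 1 as G:U, whereas 20 bases of miR-196b-5p form Watson-Crick pairs, 1 is G:U and 1 is unpaired. Of 21877 protein-coding genes scanned without gaps, 2 had a stretch that pairs with every base of miR-196a-5p, Hoxb8 and Rps6ka2, the latter with 10 G:U pairs. The motif that pairs with the seed by Watson-Crick pairs alone, ACTACCT, is not in this Hoxb8 site, where base 5 forms the G:U pair. Read on the mRNA strand with no other motif considered, it stood anywhere in a transcript of 11 of 39 Hox genes (28.2%). Over all protein-coding genes it stood in 3658 of 21877 (16.7%). These counts take no account of transcript length, so they cannot show that Hox genes are favoured. No mRNA was measured in this series, so these are features of the sequence only.

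Depth in miRNA reads set what could be seen. The miRNA reads of the B16 cell library came to 7925726, those of JB6 exosomes to 4495956 and those of B16 exosomes to 45677. The totals that the authors normalized to were 8721363, 5626936 and 847694 in the same order. Only in B16 exosomes were miRNA reads a small part of that total. The smallest count listed above 0 was 10, so a listed 0 stands for at most 9 reads, or in reads per 1000000 miRNA reads (RPM) 1.14 for B16 cells, 2.002 for JB6 exosomes and 197 for B16 exosomes. With 1 library per group no difference has a replicate check. Every interval given is an exact (Clopper-Pearson) 95% interval that covers counting error only, and since the reads carry no stated molecular identifiers, they cannot be taken as independent molecules.

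Both miR-615 arms and miR-196a-5p were higher in JB6 exosomes than in B16 cells, and miR-196b-5p was lower. Of the first 3, B16 exosomes had the depth to place miR-615-3p alone. miR-615-3p, the arm of the hairpin that is usually retained, had 59466 reads in JB6 exosomes, 173 in B16 cells and a listed 0 in B16 exosomes. These are 13227 RPM (13121 to 13333) in JB6 exosomes, where it was the 12th most abundant miRNA, and 21.8 RPM (18.7 to 25.3) in B16 cells, where it was the 269th. The other arm, miR-615-5p, had 197 reads in JB6 exosomes, or 43.8 RPM (37.9 to 50.4), and a listed 0 in both B16 libraries. The 3p arm was thus highest in JB6 exosomes, while for the 5p arm the listed 0 in B16 exosomes allows up to 197 RPM, above its JB6 level.

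miR-196a-5p had 501 reads in JB6 exosomes and 29 in B16 cells, with a listed 0 in B16 exosomes. Its level was 111 RPM (102 to 122) in JB6 exosomes and 3.66 RPM (2.45 to 5.25) in B16 cells. The 0 in B16 exosomes again allows more than the JB6 level, so those libraries could not be ordered. Between JB6 exosomes and B16 cells miR-196b-5p had the opposite order, with 27 reads in JB6 exosomes, 44 in B16 exosomes and 13473 in B16 cells. Its level was 6.01 RPM (3.96 to 8.74) in JB6 exosomes, 963 RPM (700.0 to 1293) in B16 exosomes and 1699.9 RPM (1671 to 1729) in B16 cells, at ranks 291, 81 and 57. The B16 libraries were both high and the JB6 library low, and no interval overlapped another. The plot of levels sets these beside miR-10a-5p and miR-10b-5p, which were abundant in every library.

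**Figure D2:**
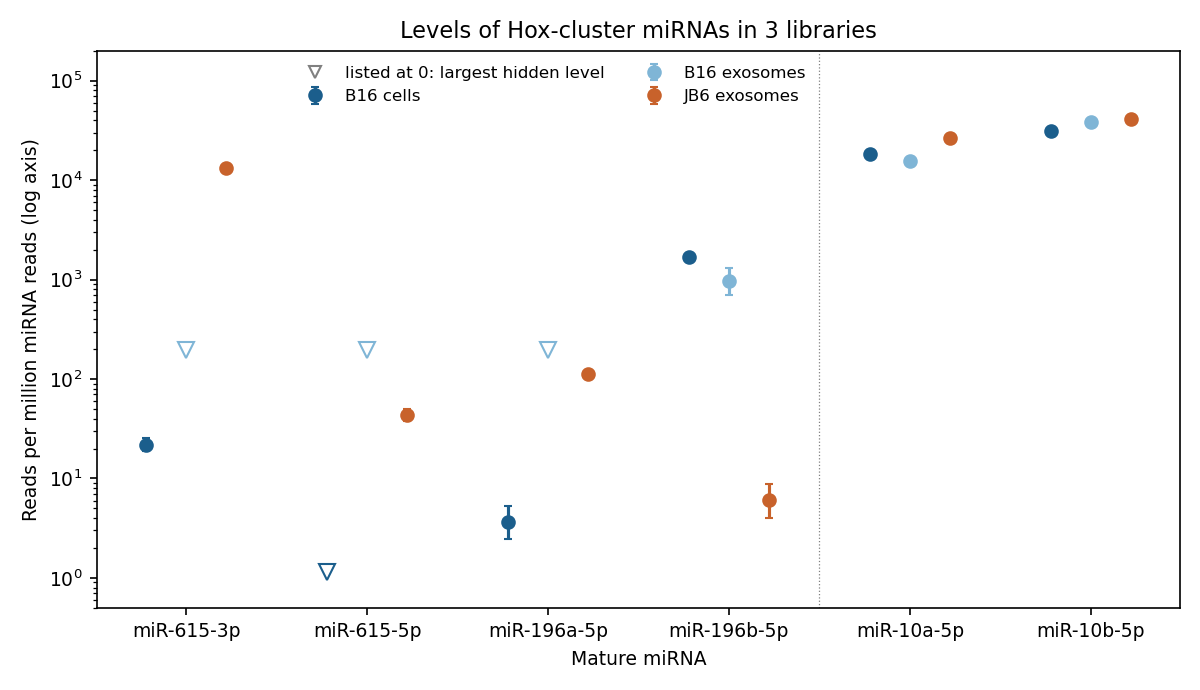
RPM of miRNA reads on a log axis for the miR-615 and miR-196 miRNAs and, right of the dotted line, the miR-10 pair in each library. Filled points carry exact 95% counting intervals and open triangles mark the largest level that a listed 0 can hide. JB6 exosomes are above B16 cells for miR-615-3p, miR-615-5p and miR-196a-5p and below them for miR-196b-5p, while the miR-10 points lie close together.

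The comparison of JB6 exosomes with B16 cells has the depth to resolve all 4 miRNAs, though cell line, strain and the step from cell to vesicle cannot be told apart in it. The share of miR-615-3p was 606-fold higher in JB6 exosomes (522 to 708) and that of miR-196a-5p 30.5-fold higher (20.9 to 45.9). miR-615-5p, set at 9 reads in B16 cells, was at least 38.6-fold higher. Counting error at that bound reaches down to 19.9-fold. miR-196b-5p was 283-fold lower (194 to 430). A call needed a ratio of 2-fold or more with 1 outside its interval, and only miRNAs with a summed count of 30 or more in the compared libraries were considered.

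By that rule 3 of the 4 miRNAs were called higher and 1 lower in JB6 exosomes. Calls were common: of 501 miRNAs tested, 131 were higher (26.1%) and 304 lower (60.7%), so being called says little by itself. The sizes lay at the ends of the order. miR-615-3p had the 9th highest ratio and miR-196b-5p the 6th lowest of 501, whereas miR-615-5p, at its bound, stood 39th and miR-196a-5p 42nd from the top. The median log2 ratio was 5.10 over the 4 miRNAs, with miR-615-5p at its bound, and -1.75 over all miRNAs tested. The 4 ran from -8.14 to 9.24, so their median marks no common shift. All 4 calls held under each of the scalings, minimums and other settings tried, apart from the sum of the miR-196 pair, in which they cannot be separated. Scaling changed the sizes, with miR-615-3p between 533-fold and 3621-fold higher and miR-196b-5p between 47.4-fold and 322-fold lower.

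**Figure D3:**
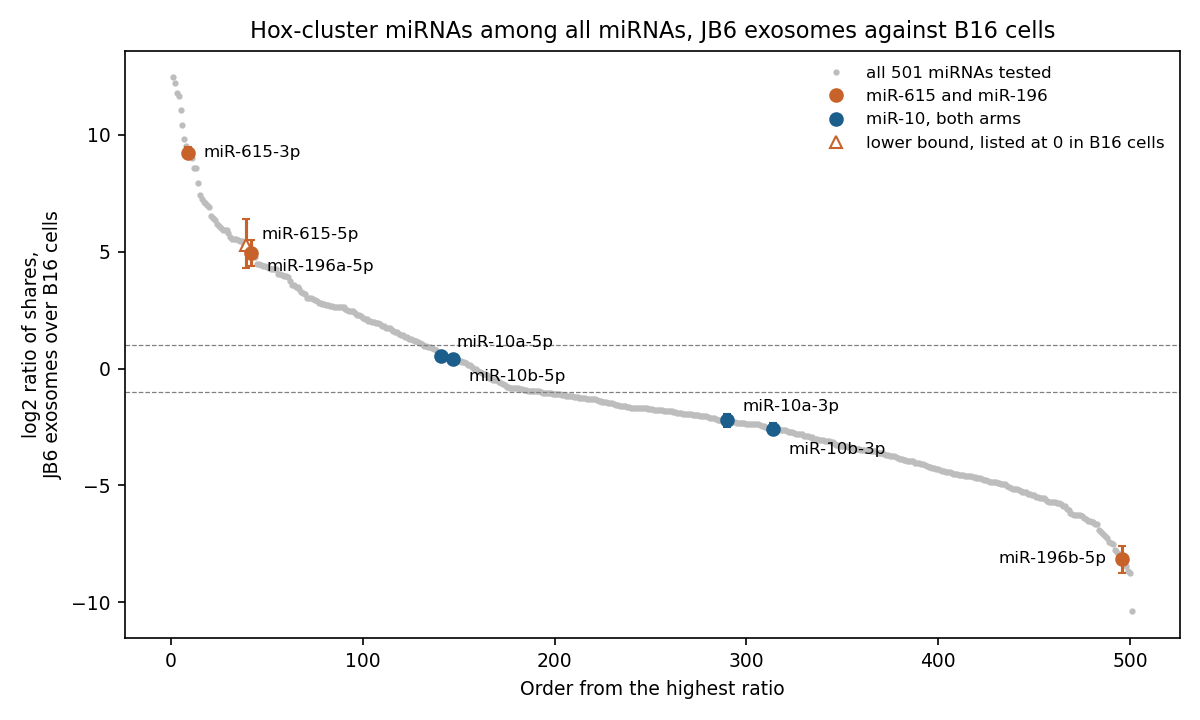
Log2 ratio of the share in JB6 exosomes over that in B16 cells for the 501 miRNAs with 30 or more reads (grey), ordered from the highest, with the Hox-cluster miRNAs coloured and exact 95% counting intervals. The dashed lines mark 2-fold. miR-615-3p is 9th from the top and miR-196b-5p 6th from the bottom, with miR-10a-5p and miR-10b-5p between the dashed lines.

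Shares within a library do not depend on how libraries are scaled to each other. Those of the miR-196 pair are built from the same counts as the ratios above, so their direction is not separate support. Of the reads of the miR-196 pair, miR-196a-5p held 29 of 13502 in B16 cells, or 0.215% (0.144 to 0.308), and 501 of 528 in JB6 exosomes, or 94.9% (92.6 to 96.6). In B16 exosomes it held none of 44 reads, which with 9 hidden reads allows up to 17.0%. The pair was thus almost all miR-196b-5p in B16 cells and mostly miR-196a-5p in JB6 exosomes. Summed as 1 seed family, the pair was 14.5-fold lower in JB6 exosomes than in B16 cells (13.3 to 15.9), with 528 reads against 13502.

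A single base separates these entries, and how reads with a mismatch were placed is not known from the labels or the files. The part of misplaced reads in the low counts, 29 of 13502 in B16 cells and 27 of 528 in JB6 exosomes, was not tested. Low counts beside a high count in another library were also seen for other abundant miRNAs, picked after looking at their counts. The 173 reads of miR-615-3p in B16 cells were 0.291% of its count in JB6 exosomes, where the same percent was 0.464 for miR-486a-5p, 0.0373 for miR-122-5p and at most 0.0542 for miR-206-3p. The 27 reads of miR-196b-5p in JB6 exosomes were 0.2004% of its count in B16 cells, where it was 3.34 for miR-184-3p, 0.195 for miR-9-5p and at most 0.0427 for miR-211-5p. Since these others were picked by their counts, they set no range for the low counts of the Hox-cluster miRNAs. The part of carry-over between libraries was not tested.

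GENCODE M21 annotates a further miRNA gene, Gm44463, inside the Hoxd cluster, which was not followed here. The other Hox-cluster miRNAs followed here are miR-10a and miR-10b. Their 5p arms are the functional strands, and miR-10a lies 0.993 kb from Hoxb4 and miR-10b within Hoxd4. miR-10a-5p had 143555 reads among the miRNA reads of B16 cells (1.81%), 119216 in JB6 exosomes (2.65%) and 713 in B16 exosomes (1.56%). miR-10b-5p had 248090, 186628 and 1756 reads in the same order. Between JB6 exosomes and B16 cells the ratio was 1.46 for miR-10a-5p (1.45 to 1.48) and 1.33 for miR-10b-5p (1.32 to 1.33), and neither was called. This depended on the scaling: both were called higher under TMM, at 3.73-fold and 3.38-fold, under DESeq2 factors, at 8.75-fold and 7.92-fold, and without the 10 most abundant miRNAs, and miR-10a-5p also without the liver, red-cell and muscle markers. The balance within the pair does not depend on it. miR-10a-5p made up 39.0% of the miR-10 5p reads in JB6 exosomes, 36.7% in B16 cells and 28.9% (27.1 to 30.7) in B16 exosomes. The Hoxb and Hoxd members of this pair thus kept shares between 28.9% and 39.0%, where those of miR-196a-5p were 0.215% and 94.9%.

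The 11 Hox-cluster mature miRNAs followed here are both arms of miR-10a, miR-10b, miR-196b and miR-615, and miR-196a-5p with its separate 3p arms. Among them, 8 had enough reads for this comparison. Of these 3 were higher in JB6 exosomes, 3 were lower and 2 were neither, with a median log2 ratio of 0.48 against -1.75 over all tested. The lower ones were miR-196b-5p and the passenger strands miR-10a-3p and miR-10b-3p, which were 4.64-fold lower (3.80 to 5.72) and 5.93-fold lower (5.02 to 7.05). These passenger-strand calls were not stable: miR-10a-3p had a log2 ratio of -0.87 under TMM and 0.36 under DESeq2 factors, and miR-10b-3p -1.22, still called, and 0.01. Over the list, 5 were higher and 2 lower under TMM (median 1.83), and 5 higher and 1 lower under DESeq2 factors (median 3.06). Together the 11 took 8.15% of miRNA reads in JB6 exosomes, 5.50% in B16 exosomes and 5.15% in B16 cells. Nearly all were miR-10 in the B16 libraries, at 96.6% and 98.2% of Hox-cluster reads, against 83.6% in JB6 exosomes. The miR-615 hairpin supplied 0.0424% of Hox-cluster reads in B16 cells and 16.3% in JB6 exosomes (16.2 to 16.4). With miR-10 left out, miR-196b-5p held 98.4% of the rest in B16 cells and miR-615-3p held 98.8% in JB6 exosomes.

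**Figure D4:**
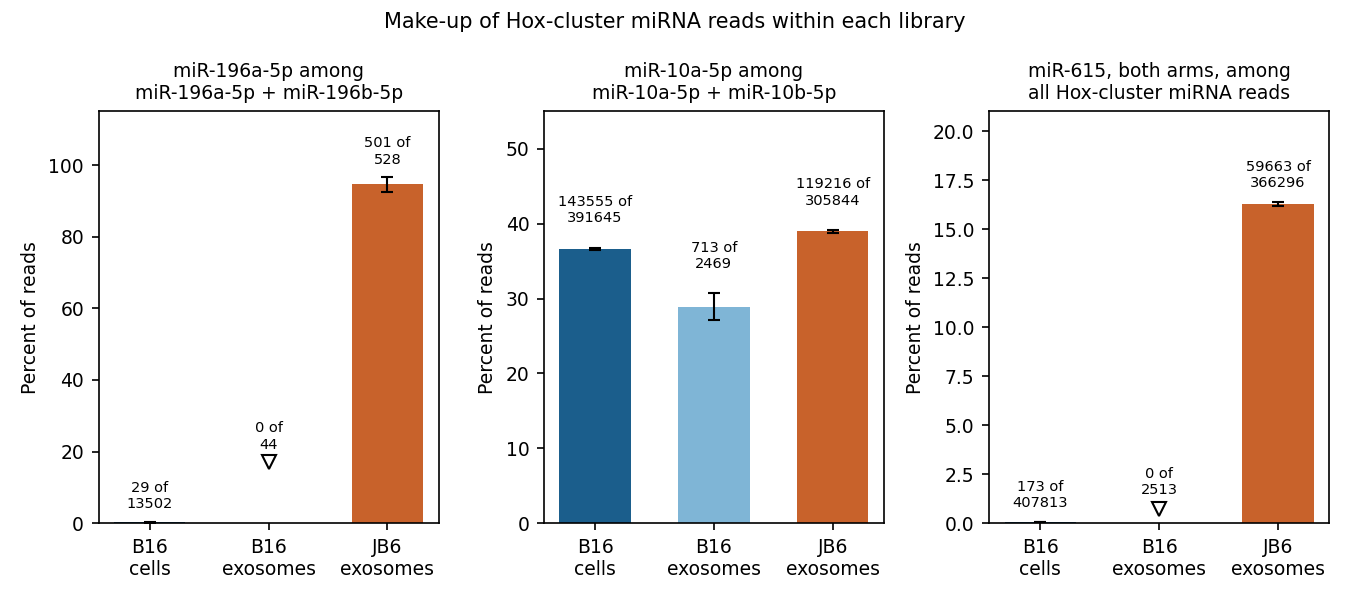
Percent of reads held by miR-196a-5p within the miR-196 pair, by miR-10a-5p within the miR-10 pair and by both miR-615 arms within all Hox-cluster miRNA reads, in each library. Bars carry exact 95% counting intervals, and open triangles show the largest percent that a listed 0 can hide (17.0% and 0.711%). The miR-196a-5p and miR-615 bars are high only for JB6 exosomes among these libraries, and the miR-10 bars run from 28.9% to 39.0%.

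The arms of the hairpins differed in balance. miR-615-5p was 0.330% of the hairpin's reads in JB6 exosomes (0.286 to 0.380), so the 3p arm held nearly all of it. In B16 cells the 5p arm was listed at 0 beside 173 reads of the 3p arm, which with 9 hidden reads allows up to 4.95%. In JB6 exosomes 72 of 132 hairpins with 100 or more reads had more 3p than 5p reads. The share on the minor arm was larger than that of miR-615 in 56 of the 132 and smaller in 32 even with 9 hidden reads for a listed 0, and the others could not be placed. For miR-196b the order was reversed, with 13473 reads of the 5p arm and 13 of the 3p arm in B16 cells, a minor share of 0.0964% (0.0513 to 0.165). The minor arms of miR-10a and miR-10b held 0.618% and 0.636% of their reads in B16 cells, and 0.0913% and 0.0814% in JB6 exosomes. Over all such hairpins the median minor share was 2.81% in B16 cells and 0.0297% in JB6 exosomes with a listed 0 taken as 0, and 3.82% and 2.59% with it set to 9 reads. No comparison of arm balance between the lines could be made for miR-615, whose 5p arm was listed at 0 in B16 cells, or for miR-196b, whose 3p arm was listed at 0 in JB6 exosomes.

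B16 exosomes were compared with JB6 exosomes, which sets vesicles against vesicles, with line, strain and disease state going together. miR-196b-5p had 44 reads in B16 exosomes and 27 in JB6 exosomes, and its share was 160-fold higher in B16 exosomes (97.1 to 269). miR-615-3p, with a listed 0 in B16 exosomes, would have had 604 reads there at its JB6 exosome share, and was at least 67.1-fold lower. Counting error at that bound reaches down to 35.4-fold. Of the 4 miRNAs 1 was called higher, where 94 of 300 tested were (31.3%), and 1 lower, where 35 of 300 were (11.7%). In an order that includes bounds, miR-196b-5p had the 14th highest ratio and miR-615-3p the 3rd lowest.

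The low number of miRNA reads in the B16 exosome library left miR-615-5p and miR-196a-5p not resolved, as it did 146 of the 300 miRNAs. At their JB6 exosome shares they would have had 2.001 and 5.09 reads there, under the smallest listed count. Both were called lower under the totals behind the authors' RPM, and miR-196a-5p also under TMM and DESeq2 factors. The calls of miR-196b-5p and miR-615-3p held under every scaling tried, with miR-196b-5p falling to 10.8-fold higher under the authors' totals, while a minimum of 100 reads removed miR-196b-5p from the comparison.

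B16 exosomes were then compared with B16 cells, which sets the vesicles against their parent cells. miR-196b-5p, the one of the 4 listed in both libraries, had 44 reads in the exosomes where its share in the cells predicts 77.6. The ratio was 0.567 (0.412 to 0.761), lower in the exosomes but inside the 2-fold limit. miR-615-3p was listed at 0 in the exosomes, where 0.997 reads were predicted, and was not resolved. miR-196a-5p had 29 reads in the cells and did not reach the minimum of 30, and miR-615-5p was listed at 0 in both. None of the 4 was called, where 36 of 422 miRNAs were higher (8.53%) and 33 lower (7.82%). miR-196b-5p was called lower under TMM, at a log2 ratio of -1.84, and under the authors' totals, at -4.90, against -0.82. The ratios of miR-10a-5p (0.862) and miR-10b-5p (1.23) were also within 2-fold. Under TMM the log2 ratio of miR-10a-5p was -1.23, called lower, and that of miR-10b-5p -0.72, and under the authors' totals both were called lower, at -4.29 and -3.78.

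Some miRNAs known from other tissues, though not all, were also higher in JB6 exosomes than in B16 cells. The lists were liver, red-cell and skeletal-muscle miRNAs, chosen as markers of cells other than those named on the labels. All 4 liver markers were listed in JB6 exosomes, with 252484 RPM summed, against 686 RPM in B16 cells and 963 RPM in B16 exosomes, and were led in JB6 exosomes by miR-122-5p and miR-192-5p. Without miR-122-5p the sum was 1254 RPM in JB6 exosomes and 633 RPM in B16 cells, and miR-194-5p was lower in JB6 exosomes (28.2 RPM) than in B16 cells (109.8 RPM). Of 5 red-cell markers 4 were listed in JB6 exosomes (14816 RPM) and 3 in B16 cells (40.2 RPM), led by miR-486a-5p and miR-486b-5p, and all were at 0 in B16 exosomes, with miR-144-5p at 0 in every library. The paired miR-486 entries have identical counts in each library, and with 1 of them left out the sums were 7478 RPM in JB6 exosomes and 20.9 RPM in B16 cells. Of 4 muscle markers 3 were listed in JB6 exosomes (3707 RPM) and 1 in B16 cells (1.39 RPM). The JB6 sum was nearly all miR-206-3p, with 16619 of 16665 reads. There miR-133a-3p had 25 reads, miR-1a-3p had 21 and miR-133b-3p was listed at 0. Their part in the miR-615 and miR-196 differences was not tested. Taking all these markers out of the totals left the calls of the 4 miRNAs unchanged. It moves every log2 ratio of JB6 exosomes over B16 cells alike, by 0.45, so it cannot show that part.

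Markers of the labelled lines were partly absent. Of 5 melanocyte markers chosen, miR-506-3p has no entry in these data. Of the other 4, 3 were listed in B16 cells (5742 RPM), 2 in JB6 exosomes (782 RPM) and 2 in B16 exosomes (5779.7 RPM). All were led by miR-146a-5p, which held 3504 of the 3518 marker reads in JB6 exosomes. It also held 24373 of 45513 in B16 cells and 181 of 264 in B16 exosomes. The defining one, miR-211-5p, was listed at 0 in JB6 exosomes and had 21080 reads in B16 cells and 83 in B16 exosomes, and miR-137-3p was at 0 in all 3 libraries. Of 7 epithelial and keratinocyte markers 2 were listed in JB6 exosomes (7.78 RPM), 4 in B16 cells (24.9 RPM) and none in B16 exosomes, with miR-205-5p, a defining keratinocyte miRNA, at 0 throughout. Mesenchymal markers summed to 61570.4 RPM in JB6 exosomes, 100904 in B16 exosomes and 59483 in B16 cells. In JB6 exosomes 7 of 7 were listed, and in each B16 library 6 of 7. The sums were led in all 3 by miR-143-3p and miR-10a-5p, the latter also a Hox-cluster miRNA. Single markers differed: miR-145a-5p was at 11.3 RPM in JB6 exosomes, 861 in B16 cells and 2561 in B16 exosomes. In contrast, miR-214-3p was at 198 RPM in JB6 exosomes and listed at 0 in both B16 libraries. Neural markers summed to 2744 RPM in JB6 exosomes, 13595 in B16 exosomes and 23557 in B16 cells, with miR-9-5p and miR-128-3p the most abundant. In JB6 exosomes and B16 cells miR-9-5p was at 67.2 and 19565 RPM, while miR-128-3p was at 2649 and 3681 RPM. The neural marker miR-124-3p was at 0 in all 3 libraries. Leukocyte markers reached 1.26 RPM in B16 cells and 15.3 RPM in JB6 exosomes and were at 0 in B16 exosomes, with miR-150-5p and miR-142a-3p the most abundant.

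The libraries also differed in base composition. The read-weighted GC content of the miRNAs was 47.5% in JB6 exosomes, 42.3% in B16 cells and 42.5% in B16 exosomes. Of 52 miRNAs with at least the GC content of miR-615-3p, 20 (38.5%) were called higher in JB6 exosomes than in B16 cells, against 108 of 442 (24.4%) of all tested miRNAs with a sequence, and 22 (42.3%) were called lower, against 275 of 442 (62.2%). Of 177 with no more GC than miR-196b-5p, 25 (14.1%) were called higher and 135 (76.3%) lower. miR-615-3p and miR-615-5p were among the 20 called higher in the first set. In the second set miR-196b-5p was among the 135 called lower and miR-196a-5p among the 25 called higher. The part of GC content in these differences was not tested.

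The miRNAs most like each of the 4 were taken as the 4 nearest by Euclidean distance of log2 RPM over the 3 libraries, with a listed 0 set to 9 reads. The nearest to miR-615-3p were miR-486a-5p and miR-486b-5p, red-cell and muscle miRNAs with identical counts of 32994 in JB6 exosomes and 153 in B16 cells, at a distance of 0.868. miR-125a-3p (2.82) and miR-127-3p (3.89) followed. Nearest to miR-196b-5p were miR-30b-5p (0.823), with 30 reads in JB6 exosomes, 77 in B16 exosomes and 13035 in B16 cells, then miR-23b-3p (0.958), miR-30c-2-3p (1.43) and miR-32-5p (1.63). miR-196a-5p stood closest to miR-381-3p (0.717), miR-3474 (0.807), miR-344d-3p (0.894) and miR-379-5p (1.03). The neighbours of miR-615-5p, miR-299a-3p, miR-433-3p, miR-676-5p and miR-669n, were listed only in JB6 exosomes, with 167 to 229 reads. With 3 libraries, such likeness is a description of these counts.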

How the data were processed

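Small RNA was sequenced from B16 cells, B16 exosomes and JB6 exosomes, 1 library each. Per the submitters' processing notes, bcl2fastq, BWA and mouse build mm10 were used. The sources used here name no versions, miRNA annotation release, strand use or rule for reads that match several miRNAs. Per the file headers, the authors deposited a count of reads per mature miRNA, not normalized, and a normalized value, which is an RPM computed by the authors from a total larger than the miRNA reads (8721363, 847694 and 5626936). Counts below 10 are listed as 0.

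Groups came from the labels. Shares were taken over all miRNA reads, and ratios carry exact conditional-binomial 95% intervals (scipy 1.17.1). With 1 library per group no test across libraries was run. Alternatives were edgeR 4.0.16 TMM factors, DESeq2 1.42.0 size factors, 3 other totals, 2 other minimums, 5 reads for a listed 0, a stricter call and the miR-196 pair summed. The call script was tested on simulated data. Sequences are from RefSeq and annotation from GENCODE M21 (GRCm38). Named miRNAs were the 4 members, the Hox-cluster list, the 4 nearest to each member by log2 share, and the 2 most abundant markers of each cell type list. miR-184-3p, miR-194-5p, miR-145a-5p, miR-214-3p, miR-1a-3p and further markers at 0 were added after their values were seen. The members and lists were chosen with earlier results of these data known.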

Additional observations from a re-analysis of the deposited data

How the results depend on the processing

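No paired analysis was possible because each group holds 1 library. Between JB6 exosomes and B16 cells, 4 of 4 miRNAs were called under each setting that kept them as separate entries, and 3 of 3 with the miR-196 pair summed. Between the exosome libraries 2 were called, against 3 under TMM, 3 under DESeq2 factors, 4 under the authors' totals and 1 with a minimum of 100 reads, which drops miR-196b-5p. Between B16 exosomes and B16 cells 0 were called, against 1 under TMM and 1 under the authors' totals. There, calls over all miRNAs numbered 69, against 109 with TMM, 266 with the authors' totals and 37 with an interval bound of at least 2-fold. Scaling moved every log2 ratio of JB6 exosomes over B16 cells by 1.35 (TMM), 2.58 (DESeq2), 0.67 (without the 10 most abundant miRNAs), -0.19 (authors' totals) and 0.45 (without the marker lists). The split into higher and lower calls went from 131 and 304 to 165 and 202 with TMM and 204 and 134 with DESeq2. Between the exosome libraries it went from 94 and 35 to 61 and 97, 57 and 109 with these, and 40 and 153 with the authors' totals. Between B16 exosomes and B16 cells it went from 36 and 33 to 16 and 93 with TMM and 9 and 257 with the authors' totals. The share of miR-615-3p in Hox-cluster reads of JB6 exosomes, 16.2%, was 98.8% without miR-10, since miR-10 holds most of those reads. Depth in miRNA reads limits miR-615 and miR-196a-5p in B16 exosomes, where a listed 0 hides up to 197 RPM.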

Other observations

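The miR-196 seed, AGGUAGU at bases 2 to 8, also stands at bases 3 to 9 of 9 other miRNAs in the RefSeq table. They are let-7a-5p, let-7b-5p, let-7c-5p, let-7d-5p, let-7f-5p, let-7g-5p, let-7i-5p, miR-98-5p and miR-1961. The let-7 family is a widely expressed set of miRNAs that restrain growth-promoting genes. Of these 9, 8 were listed above 0 in each library, and together they held 3.56% of miRNA reads in JB6 exosomes, 37.9% in B16 exosomes and 35.7% in B16 cells. Their own seeds, at bases 2 to 8, differ from that of miR-196, and no target was measured.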
